A study of Mus musculus with 8 samples.

Results

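Cd34, Kit, Flt3, Slamf1, Cd48, Cd93 and Procr, 7 of the 23284 gene symbols in the expression tables, encode surface proteins by which hematopoietic stem and progenitor cells are sorted. They were taken by symbol, and all 7 were found in both tables. RNA-seq was performed on 4 libraries of IdHPCs and 4 of LMPPs, all from mouse bone marrow of the strain B6CBAF1/J. IdHPCs are progenitors held in culture by transduction of the transcription inhibitor Id3, and LMPPs are lymphoid-primed multipotent progenitors. The comparison asks how the RNA of these markers stood after loss of PCGF1, a subunit of a variant Polycomb repressive complex that modifies histone H2A.

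The control IdHPCs were Pcgf1 fl/fl (2 libraries), and the Pcgf1-KO IdHPCs (2 libraries, labelled Pcgf1 -/-) carried ERT2-Cre with Pcgf1 fl/fl and were given 4-OHT, the active form of tamoxifen, for 4 days. ERT2-Cre deletes exons 2 to 7 of Pcgf1 once 4-OHT is added, and the promoter that drives it is not given in the sources used here. For the RNA-seq libraries the treatment of the control IdHPCs is not given in the sources used here, while for another assay the study describes IdHPCs given ethanol in place of 4-OHT as its controls. The LMPPs were Pcgf1 fl/fl (2 libraries labelled control) or ERT2-Cre with Pcgf1 fl/fl (2 libraries labelled Pcgf1-KO), all cultured for 4 days with 4-OHT. All cells grew on TSt-4 stromal cells with IL-7, SCF and Flt3 ligand, so that the ligands of KIT and FLT3 were supplied to every library. The labels do not say whether replicates came from separate cultures or animals, while the study's text describes its RNA-seq replicates as biologically independent.

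KIT and FLT3 are related receptor tyrosine kinases, bound by stem cell factor and by Flt3 ligand. KIT sustains stem cells and early progenitors of most lineages, and FLT3 rises as progenitors become lymphoid-primed, while CD34 is a sialomucin that marks progenitors beyond the most quiescent stem cells of adult mice. SLAMF1 (CD150) and CD48, both of the SLAM family, are read together to part stem cells from progenitors, PROCR (EPCR) marks stem cells, and CD93 marks early and fetal progenitors.

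The annotation used for positions was that of NCBIM37 (mm9), the build of the files. Cd34 lies on the plus strand of chromosome 1 (196765015 to 196787486, 8 exons), and the neighbors Cd48 (173612140 to 173635389, 4 exons) and Slamf1 (173697258 to 173731315, 7 exons) lie on the same strand of chromosome 1. Kit lies on the plus strand of chromosome 5 (75970941 to 76052747, 21 exons) and Flt3 on its minus strand (148142317 to 148212065, 24 exons). Cd93 lies on the minus strand of chromosome 2 (148262376 to 148269299, 2 exons) and Procr on its plus strand (155576853 to 155581207, 4 exons).

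The tables list exons, and 2 of the genes have an exon that is listed in overlapping forms. The last exon of Cd34 starts at 196785974 in the transcript with a short cytoplasmic tail and at 196786130 in the one with the full tail, a difference of 156 bases, and a read on the shared bases stands on both rows. Exon 9 of Kit ends at 76035183 or 12 bases earlier at 76035171, and the proteins of these transcripts differ beside the membrane. The sequences at these ends are shown because they are where the forms part, and in the first sequence the capitals mark the stop codon that ends the short tail and in the last the 12 bases held only by the longer form of Kit.
Cd34, longer last exon, chr1:196785974-196785988: gagctggaacctTGA
Cd34, shorter last exon, chr1:196786130-196786159: ggtgaagacccttattacacggagaatggt
Kit, longer exon 9, chr5:76035154-76035183: ttaactttgcatttaaagGTAACAACAAAG
Of the Cd34 reads on the longer row of the last exon, between 3.09% and 5.66% in IdHPCs and between 3.87% and 5.26% in LMPPs did not touch the shorter row. For Kit the longer row of exon 9 held 0 extra reads in each IdHPC library and between 0 and 4 in the LMPP libraries. Since reads on the shared bases count for both forms, neither number is the share of a transcript form.

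The values are CPM, counts scaled by the authors to the library total, summed over the exons of a gene after repeats of an exon were dropped. Overlapping forms of an exon were both kept. Most reads on the last exon of Cd34 and on exon 9 of Kit thus entered the sum on both rows. Between 15722759 and 25302206 reads per IdHPC library and between 9618849 and 12578784 per LMPP library stood on distinct exons. One read was worth between 0.0287 and 0.0757 CPM. Pcgf1-KO 2 of the IdHPCs stood apart, where the 3′ exons of 8069 genes took 28.9% of the reads, against 23.8% to 25.5% in the other 3 libraries. In IdHPCs, exons 2 to 7 of Pcgf1 held 193 and 173 reads in the controls and 15 in each Pcgf1-KO library. In LMPPs they held 84 and 76 reads in the replicates numbered 1 (labelled control and labelled Pcgf1-KO) and 0 reads in both replicates numbered 2. These reads thus did not divide the 4 LMPP libraries as their labels do, and the libraries are called by their labels throughout. The paper itself reports lower Pcgf1 in Pcgf1-KO LMPPs, by RT-qPCR and in browser tracks, neither of which was analysed here.

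Flt3 had the highest level among the 7 genes in IdHPCs and Cd34 in LMPPs, and Slamf1 was lowest in both. Levels between genes were compared as CPM per kb of exon, with each exon counted once. In control IdHPCs Flt3 stood at 116 and 173 CPM per kb, Cd93 at 39.4 and 70.0, Cd34 at 28.9 and 28, Cd48 at 15.9 and 13.4, Kit at 5.44 and 9.64 and Procr at 0.939 and 0.772. None of these neighbors overlapped in the 2 controls. In the Pcgf1-KO IdHPCs Cd34, at 65.6 and 42.5 CPM per kb, lay above Cd93, at 33.8 and 26.0, so that these genes stood in the other order. In the 4 LMPP libraries Cd34 ranged from 195 to 213 CPM per kb and Flt3 from 99.99 to 120 CPM per kb. Kit (42.3 to 71.2 CPM per kb) and Cd93 (40.4 to 62.9 CPM per kb) overlapped, and Cd48 followed at 20.4 to 35.8. Procr ranged from 0.323 to 1.04 CPM per kb and Slamf1 from 0.0510 to 0.278.

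**Figure D1:**
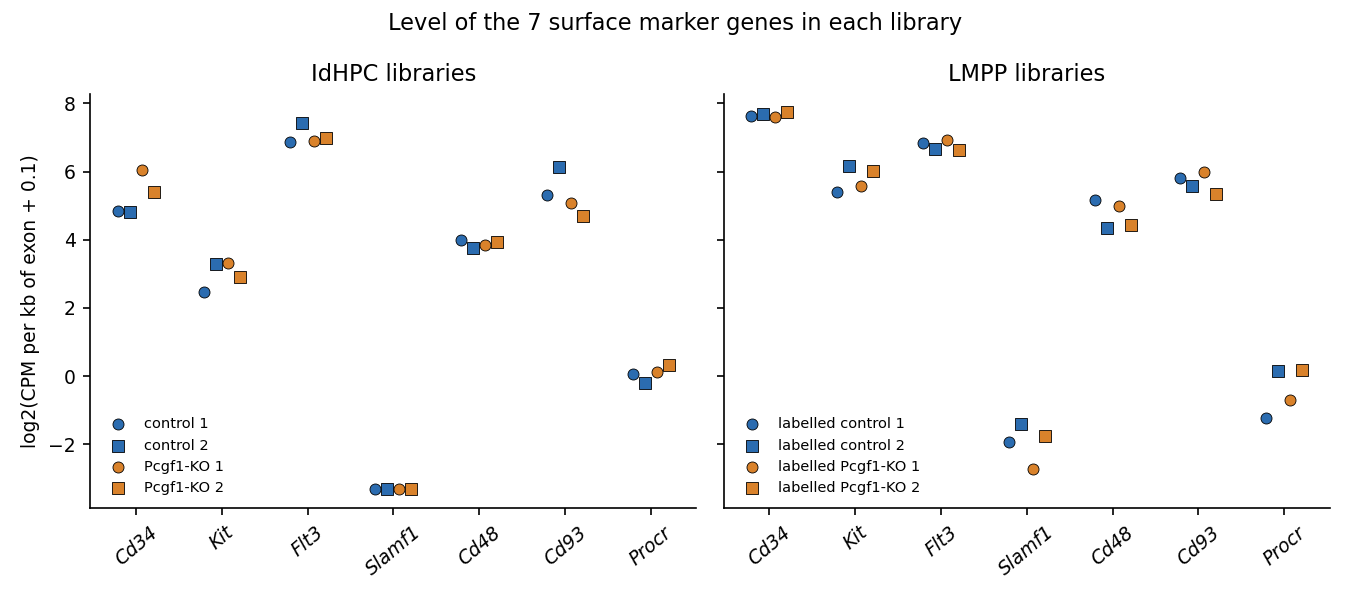
Level of each gene in each library as log2(CPM per kb of exon + 0.1), for IdHPCs on the left and LMPPs on the right, with 1 point per library. Cd34 in the Pcgf1-KO IdHPCs lies above both controls (65.6 and 42.5 against 28.9 and 28 CPM per kb), and Slamf1 lies at the bottom in both panels, at 0 in every IdHPC library.

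The same gene stood at different levels in the 2 cell types. With each exon counted once, the mean of the 4 LMPP libraries was 7.15 times the control IdHPC mean for Cd34 (533 against 74.5 CPM) and 7.50 times for Kit (295 against 39.3 CPM), and for both genes no LMPP library overlapped any IdHPC library. Cd48 was 1.87 times as high (32.3 against 17.3 CPM), also without overlap. Flt3 (399 against 528 CPM), Cd93 (345 against 365 CPM) and Procr (1.15 against 1.37 CPM) overlapped between the cell types. The tables were normalized separately and the cell types stand in separate tables, so that these ratios are a description with no test.

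The level of Cd34 was higher in each Pcgf1-KO IdHPC library than in its controls, though limma did not call it. Control 1 held 108 CPM of Cd34 and control 2 held 105, where Pcgf1-KO 1 held 247 CPM and Pcgf1-KO 2 held 177. The groups did not overlap, and the controls lay close together. The means were 106 ± 2.02 CPM in controls and 212 ± 50.0 CPM in Pcgf1-KO libraries (SD, n = 2 each). The log2 fold change on the log2(CPM + 1) scale was 0.97 (standard error 0.23, 95% confidence interval 0.46 to 1.48), and the adjusted p was 0.0856 by limma with Benjamini-Hochberg adjustment over all 12273 genes tested. Cd34 was therefore not called by limma. It was called on the recovered reads by edgeR's exactTest (adjusted p = 0.00362), the test named in the study's methods, and by DESeq2 (adjusted p = 0.00577), and not by edgeR's quasi-likelihood test (adjusted p = 0.0626). The call of limma also differed with the libraries that entered the fit, with the lone library of a group assumed to vary like the other group. Cd34 was called without Pcgf1-KO 2 (log2 fold change 1.21, adjusted p = 0.0312 by limma), and it was not called without Pcgf1-KO 1 (0.73, adjusted p = 0.0581), without control 1 (0.99, adjusted p = 0.263) or without control 2 (0.95, adjusted p = 0.661).

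The last exon of Cd34 lay above both controls in both Pcgf1-KO libraries, while the exons before it differed between the 2 libraries. In Pcgf1-KO 1 all 8 exons lay above both controls, at 2.04 to 2.43 times the control mean. In Pcgf1-KO 2 the last exon, which carries the 3′ untranslated region, stood at 2.04 times the control mean, with 67.2 CPM against 33.4 and 32.4 CPM in the controls. The other 7 exons of that library ranged from 0.848 to 1.34 times the control mean, and 4 of them lay above both controls. The last exon held 60.3% of the Cd34 reads in Pcgf1-KO 2, with each exon counted once, against 44.1% and 44.2% in the controls and 46.6% in Pcgf1-KO 1. Without that exon Cd34 had 42.3 and 40.9 CPM in the controls, 91.8 CPM in Pcgf1-KO 1 and 44.2 CPM in Pcgf1-KO 2, which left a difference of 0.60 on the log2 scale (standard error 0.36, adjusted p = 0.646 by limma). The part of the higher 3′ share of Pcgf1-KO 2 in the Cd34 difference was not tested. Exon 7 of Cd34 overlaps an antisense noncoding gene, and the strand used in counting is not given in the sources used here.

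**Figure D2:**
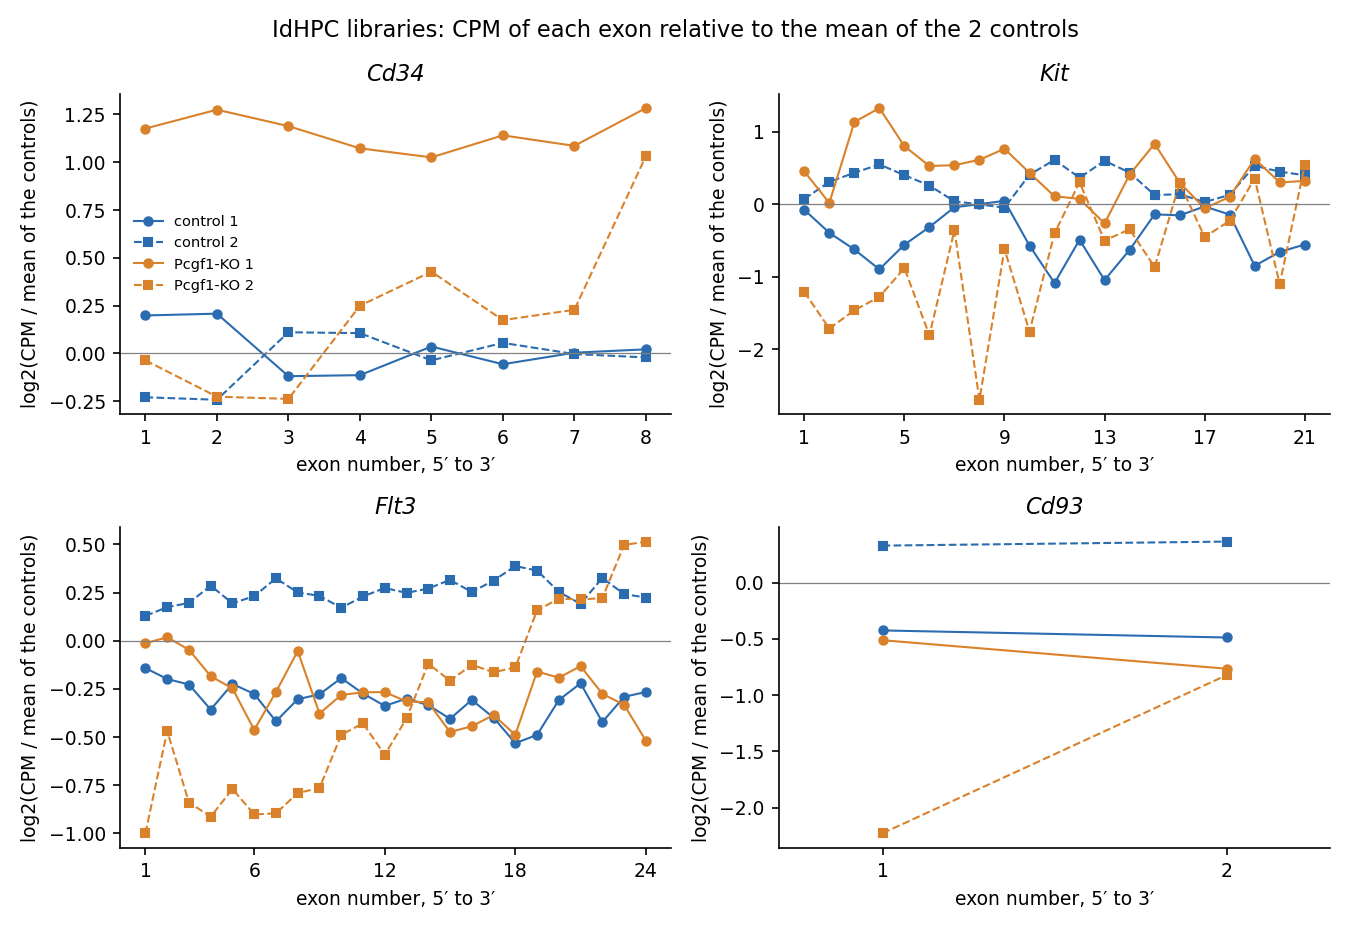
CPM of each exon in the 4 IdHPC libraries relative to the mean of the 2 controls, on a log2 axis, by exon number from 5′ to 3′, for Cd34, Kit, Flt3 and Cd93. In Pcgf1-KO 1 Cd34 lies above the controls at all 8 exons, while in Pcgf1-KO 2 each of the 4 genes lies higher relative to the controls at its last exon than at its first.

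Markers of stromal cells were higher in the same Pcgf1-KO IdHPC libraries as Cd34. A list of 21 stromal genes, such as collagens, Sparc and Cxcl12, summed to 3951 and 3464 CPM in controls and 8471 and 6681 CPM in Pcgf1-KO 1 and 2. All 18 tested genes of the list had a log2 fold change above 0 (median 1.02, against 0.0056 over all genes tested), and 3 of them, Sparc, Col1a2 and Serpinf1, passed the adjusted threshold of limma, as did 0.53% of all genes tested. Dcn and Lum were at 0 in every library. For each 1000 CPM of stromal markers there were 27.2 and 30.2 CPM of Cd34 in the controls and 29.2 and 26.4 CPM in Pcgf1-KO libraries. In LMPPs the stromal list summed to between 66.1 and 76.5 CPM, most of it from Pdgfrb, Serpinf1 and Mmp2, while Cd34 stood between 721 and 800.1 CPM. The part of stromal RNA in the IdHPC differences of Cd34 and Cd93 was not tested. Endothelial cells also express Cd34, and 7 of 10 endothelial markers, Cdh5 and Kdr among them, were at 0 in every IdHPC library, with the sum of the list between 2.24 and 3.58 CPM. Mast cell and basophil markers, a lineage that carries KIT, were at 0 in every IdHPC library for 8 of 10 genes, and their sum was 0.0612 to 0.188 CPM. Markers of B cells, which IdHPCs can become, summed to between 99.7 and 244 CPM in IdHPCs with each Pcgf1-KO library between or above the controls, and to between 15.4 and 25.7 CPM in LMPPs. In bulk RNA, fewer cells of a type and less RNA per cell cannot be told apart.

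**Figure D3:**
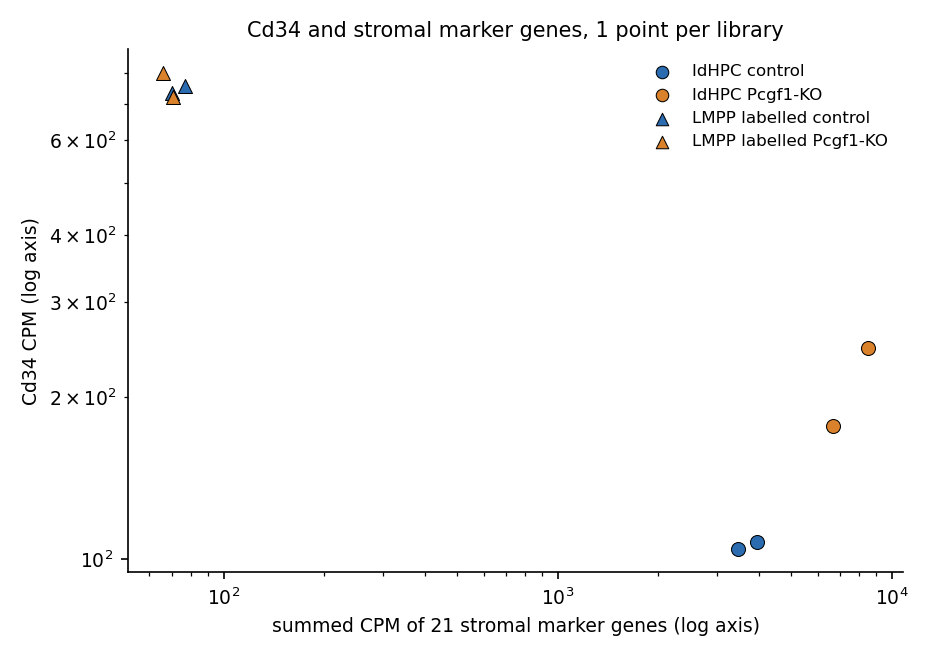
Cd34 CPM against the summed CPM of 21 stromal marker genes, 1 point per library, both axes logarithmic. The Pcgf1-KO IdHPCs (circles) lie above the controls on both axes, and the LMPPs (triangles) combine the highest Cd34, 721 to 800.1 CPM, with stromal sums of 66.1 to 76.5 CPM.

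Kit, the receptor of stem cell factor, had 29.6 and 51.4 CPM in the control IdHPCs and 53.8 and 39.1 CPM in Pcgf1-KO IdHPCs. The groups overlapped, with the lowest and the second highest value both in controls. The log2 fold change was 0.23 (standard error 0.29, 95% confidence interval -0.42 to 0.88, adjusted p = 0.754 by limma), and without the last exon it was -0.06. Along the gene the Pcgf1-KO libraries parted. In Pcgf1-KO 2, 14 of the 20 exons before the last lay below both controls and the sum of these exons was 0.621 times the control mean, but the last exon was at 1.45 times. In Pcgf1-KO 1, 12 of these 20 exons lay above both controls and their sum was 1.37 times the control mean.

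Flt3, the receptor of Flt3 ligand, had 425 and 631 CPM in the control IdHPCs and 432 and 459 CPM in Pcgf1-KO IdHPCs, so that both Pcgf1-KO libraries lay between the controls. Its log2 fold change was -0.22 (standard error 0.24, 95% confidence interval -0.75 to 0.31, adjusted p = 0.701 by limma). In Pcgf1-KO 2 the first exon was at 0.500 times and the last at 1.43 times the control mean, and 13 of the 23 exons before the last lay below both controls. In Pcgf1-KO 1 no exon lay above both controls and 9 of 24 lay below both.

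Cd93, a C-type lectin-like receptor of early progenitors, had 263 and 467 CPM in the control IdHPCs and 225 and 173 CPM in Pcgf1-KO IdHPCs. Both Pcgf1-KO libraries lay below both controls, although the controls differed from each other by more than Pcgf1-KO 1 differed from control 1. The log2 fold change was -0.82 (standard error 0.28, 95% confidence interval -1.45 to -0.20, adjusted p = 0.213 by limma). It was -0.41 without control 2 and -1.24 without control 1. Cd93 has only 2 exons, and in Pcgf1-KO 2 the first stood at 20.1 CPM against 70.1 and 118 CPM in the controls (0.213 times their mean), whereas the second stood at 0.565 times. In Pcgf1-KO 1 the ratios were 0.701 and 0.588.

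Cd48 had 18.8 and 15.8 CPM in the control IdHPCs and 17 and 18.0 CPM in Pcgf1-KO IdHPCs, both within the range of the controls, with a log2 fold change of 0.02 (95% confidence interval -0.53 to 0.57, adjusted p = 0.976 by limma). Its last exon was at 1.76 times the control mean in Pcgf1-KO 2 and at 1.01 times in Pcgf1-KO 1. The 3 exons before it all lay below both controls in Pcgf1-KO 2. Their sum was 0.811 times the control mean there and 0.974 times in Pcgf1-KO 1. Without the last exon the log2 fold change of Cd48 was -0.15. Procr rested on few reads, 49 and 43 in the controls and 45 and 39 in the Pcgf1-KO libraries. These gave 1.5 and 1.23 CPM against 1.58 and 1.84 CPM, without overlap but with a log2 fold change of 0.20 (95% confidence interval -0.46 to 0.85, adjusted p = 0.796 by limma). Slamf1 had 0 reads in all 4 IdHPC libraries, where 3 reads, the limit that a count of 0 allows, come to 0.0860 to 0.141 CPM per library. It was therefore not tested.

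Across the members, 6 passed the expression filter of at least 1 CPM in 1 library and 0 were called by limma in IdHPCs, where 0.53% of all genes tested were called. At an unadjusted p under 0.05 there were 2, Cd34 among the higher and Cd93 among the lower, where 9.17% of all genes tested were higher and 5.33% lower at this threshold. The exactTest of edgeR, which called 5.13% of all genes, and DESeq2, which called 4.05%, each called Cd34 and no other member. Both Pcgf1-KO libraries lay above both controls for Cd34 and Procr, as for 25.6% of all genes tested, and below both for Cd93, as for 21.3%. The median log2 fold change of the 6 tested members was 0.11, against 0.0056 over all genes.

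**Figure D4:**
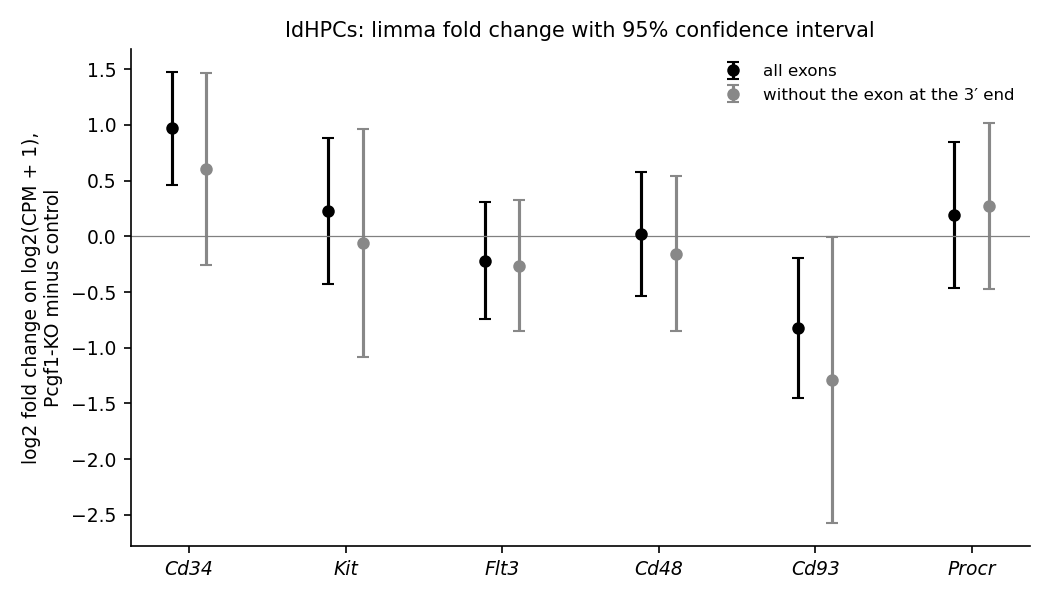
Log2 fold change on the log2(CPM + 1) scale with its 95% confidence interval from limma for the 6 tested genes in IdHPCs, Pcgf1-KO minus control, over all exons (black) and without the exon at the 3′ end (gray). Leaving out that exon moves Cd34 from 0.97 to 0.60 and Kit from 0.23 to -0.06, and widens the interval of Cd93, whose value goes from -0.82 to -1.29.

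The genes around the members were described from lists by function. Among the ligands, Kitl, which encodes stem cell factor, had 8.82 and 9.97 CPM in the control IdHPCs and 24.4 and 7.72 CPM in Pcgf1-KO 1 and 2, and 0 CPM in every LMPP library. Flt3l, which encodes Flt3 ligand, had 4.71 and 7.59 CPM in the control IdHPCs and 4.71 and 6.21 CPM in Pcgf1-KO IdHPCs. Of 41 tested genes for the ligands and the signaling below KIT and FLT3, 0 were called in IdHPCs by limma (at an unadjusted p under 0.05, 1 higher and 7 lower, against 9.17% and 5.33% of all genes tested), and their median log2 fold change was -0.13. The signaling genes with the largest differences were Cbl and Sla. Cbl, a ubiquitin ligase that ends receptor signaling, had 52.8 and 60.1 CPM against 46.3 and 8.14 CPM. Its lowest value was that of Pcgf1-KO 2, the library with the higher 3′ share. Sla, an adaptor, had 76.2 and 109 CPM against 42.8 and 51.6 CPM. The kinase gene Lyn had 95.9 and 114 CPM in the controls against 70.5 and 59.9 CPM, and the transcription factor gene Stat3 had 159 and 192 CPM against 125 and 97.3 CPM.

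Pdgfra and Pdgfrb encode receptor kinases of the same class as KIT and FLT3. Pdgfra had 6.0 and 4.30 CPM in the control IdHPCs and 14.8 and 8.75 CPM in Pcgf1-KO IdHPCs (log2 fold change 1.03, adjusted p = 0.171 by limma). Pdgfrb had 15.4 and 12.3 CPM against 34.4 and 23.8 CPM (1.0, adjusted p = 0.117 by limma), and both genes stand in the stromal list as well. Among the relatives of CD34, Podxl and Podxl2 did not pass the filter in IdHPCs, with at most 0.281 and 0.612 CPM. Of the C-type lectins related to CD93, Cd248, a gene of stromal cells, had 12.2 and 11.1 CPM in the controls against 20.9 and 30.2 CPM, while Thbd, which encodes thrombomodulin, had 12.3 and 14 CPM against 10.1 and 7.34 CPM. In the protein C pathway, to which PROCR and thrombomodulin belong, F2r had 16.6 and 16.1 CPM against 38.8 and 21 CPM, Pros1 had 9.80 and 6.62 CPM against 19.5 and 14.7 CPM, and Proc itself had 0 reads. None of these genes passed the adjusted threshold of limma.

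The list of the SLAM family also held Cd2 and adaptor genes, and 6 of its genes were tested in IdHPCs. Their log2 fold changes had their median at -0.32, with 2 genes above 0. Of these genes 0 were called by limma (at an unadjusted p under 0.05, 0 higher and 2 lower, against the same 9.17% and 5.33% of all genes). Cd244, which encodes the receptor of CD48, had 15.4 and 16.4 CPM in controls and 13.6 and 10.2 CPM in Pcgf1-KO IdHPCs, and the adaptor gene Sh2d1b1 had 11.1 and 13.3 CPM against 8.18 and 6.45 CPM. Cd2, whose protein binds CD48, had 47.3 and 37.0 CPM against 28.5 and 43.5 CPM, and Ly9 had 38.9 and 48.5 CPM against 39.2 and 55.9 CPM. Among 29 tested genes for other surface markers of progenitors, 0 were called by limma (at an unadjusted p under 0.05, 6 higher and 5 lower, against 9.17% and 5.33% of all genes) and the median was 0.06. The integrin gene Itga6 had 250.0 and 446 CPM in the controls against 160 and 66.2 CPM, and Ly6d, a marker of B cell-biased lymphoid progenitors, had 296 and 254 CPM against 60.1 and 153 CPM. The chemokine receptor gene Ccr9 had 1.96 and 3.75 CPM against 7.80 and 13.4 CPM, and Neo1 had 6.98 and 7.36 CPM against 24.1 and 11.4 CPM.

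In LMPPs compared by label the members differed little between the groups. The libraries labelled control 1 and Pcgf1-KO 1 had 84 and 76 reads on exons 2 to 7 of Pcgf1, and both numbered 2 had 0. By these reads each labelled group was mixed, so that the comparison by label cannot show whether PCGF1 loss changed the members. The libraries labelled control 1 and 2 held 736 and 758 CPM of Cd34, where those labelled Pcgf1-KO 1 and 2 held 721 and 800.1 CPM. The log2 fold changes of the 6 tested members lay between -0.05 for Cd48 and 0.15 for Procr, and all 6 had an adjusted p of 1.0 by limma. The 95% confidence interval of Cd34 ran from -0.28 to 0.33, that of Flt3 from -0.32 to 0.38, that of Cd93 from -0.58 to 0.52, that of Kit from -0.65 to 0.70, that of Cd48 from -0.81 to 0.71 and that of Procr from -0.85 to 1.15. Limma called 0 of the 12153 genes tested (0%), and at an unadjusted p under 0.05 there were 2 higher (0.0165%) and 0 lower. EdgeR's quasi-likelihood test, its exactTest and DESeq2 called 0 genes as well. For all 6 tested members the labelled groups overlapped. Groups without overlap were found for 5.92% (higher) and 6.3% (lower) of all genes tested.

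The LMPP libraries can also be set side by side by their reads on exons 2 to 7 of Pcgf1, which divides them as the replicate numbers do. In this arrangement 26.7% of all genes tested lay wholly higher and 29.9% wholly lower in the libraries without such reads, so that an order by it is common. It is read from the values and not from the labels, and no test was made. Kit had 384 CPM in the library labelled control 2 and 352 CPM in the library labelled Pcgf1-KO 2, the libraries without reads on these exons, whereas the libraries labelled control 1 and Pcgf1-KO 1, which had such reads, held 228 and 258 CPM. The 2 former lay above the 2 latter, by 0.60 on the log2(CPM + 1) scale between the means of the log values (1.52-fold), and by 0.45 to 0.75 between single libraries. All 21 exons of Kit showed this order. Cd48 had the opposite order, with 24.1 and 25.2 CPM in the libraries without and 42.2 and 37.7 CPM in those with the Pcgf1 reads, a log2 difference of -0.67 (1.60-fold lower) that all 4 of its exons showed.

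The libraries labelled control 2 and Pcgf1-KO 2 held 316 and 270 CPM of Cd93, and those labelled control 1 and Pcgf1-KO 1 held 373 and 420 CPM, a log2 difference of -0.44 that 1 of its 2 exons showed. Flt3 had 371 and 366 CPM against 419 and 440 CPM, a log2 difference of -0.22 that 20 of 24 exons showed. Cd34 was nearly level, 758 and 800.1 CPM against 736 and 721 CPM, a log2 difference of 0.10 that 3 of 8 exons showed. Procr had 28 and 22 reads (1.61 and 1.67 CPM) against 7 and 12 reads (0.516 and 0.824 CPM), a log2 difference of 0.67. Slamf1 had 13 and 7 reads against 6 and 2 reads, all under 1 CPM, so that it did not pass the filter, and no order is read from so few reads.

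**Figure D5:**
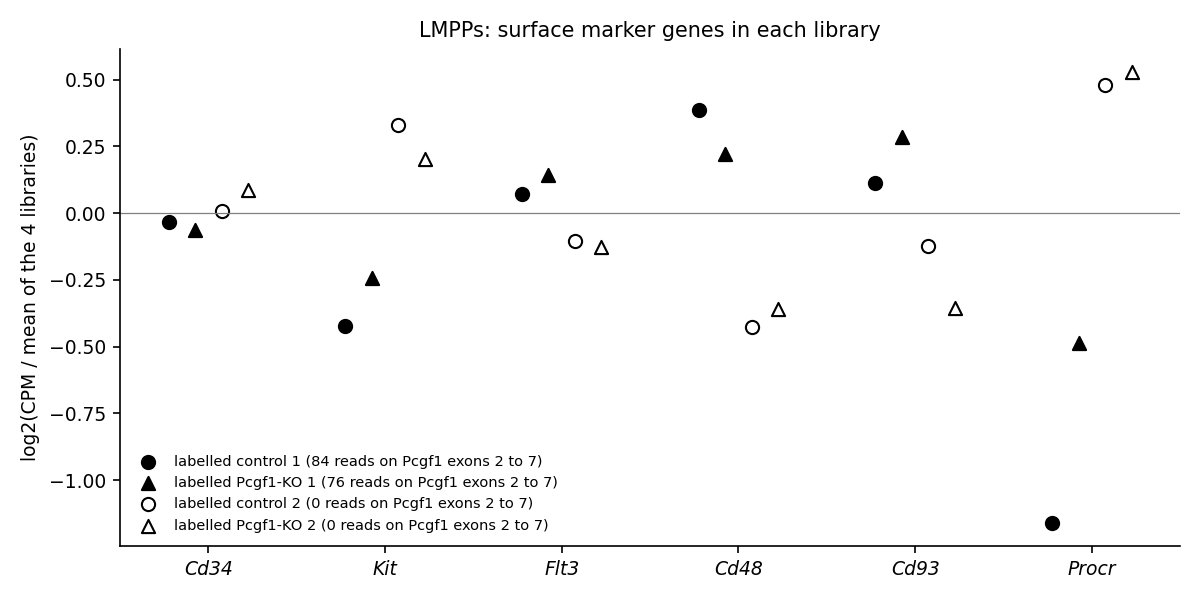
CPM of the 6 tested genes in each LMPP library relative to the mean of the 4 libraries, on a log2 axis, with circles for libraries labelled control, triangles for those labelled Pcgf1-KO, filled where exons 2 to 7 of Pcgf1 had reads (84 and 76) and open where they had 0. Open symbols lie above filled ones for Kit, Procr and, by little, Cd34, and below them for Flt3, Cd48 and Cd93.

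Of the 6 tested members, 3 lay wholly higher (Cd34, Kit and Procr) and 3 wholly lower (Flt3, Cd48 and Cd93) in the libraries without the Pcgf1 reads, beside the 26.7% and 29.9% of all genes. With a fold of at least 1.5 in addition there were 2 members higher (Kit and Procr) and 1 lower (Cd48), and of all genes tested 6.96% and 4.21%. The labels' replicate numbers divide the libraries in the same way, so that the Pcgf1 reads and the replicate number cannot be told apart. Mature myeloid markers moved with this order. Itgam (31.8 and 31.5 CPM against 74.0 and 83.1 CPM), Lyz2 (37.1 and 39.6 CPM against 93.0 and 77.7 CPM) and Csf1r (52.9 and 49.2 CPM against 114 and 118 CPM) were lower in the libraries without the Pcgf1 reads, and 6 of the 7 tested genes of that list lay wholly lower. The platelet factor gene Pf4 was higher (66.6 and 84.3 CPM against 35.9 and 28.3 CPM), as were all 5 tested erythroid and megakaryocyte genes. The part of such cells in the order of Kit, Cd48 and Cd93 was not tested.

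The genes around the members were set side by side in LMPPs in the same way. Of 40 tested genes for ligands and signaling of KIT and FLT3, 19 lay wholly higher and 9 wholly lower in the libraries without the Pcgf1 reads, beside 26.7% and 29.9% of all genes, with a median log2 difference of 0.10 against -0.02 over all genes. The adaptor gene Gab1 had 15.8 and 15.2 CPM against 7.15 and 8.92 CPM, Gab2 had 46.8 and 37.5 CPM against 25.3 and 29.2 CPM, the phospholipase gene Plcg1 had 111 and 98.0 CPM against 56.5 and 65.1 CPM, and Socs3, an inhibitor of cytokine signaling, had 11.3 and 11.8 CPM against 5.75 and 5.97 CPM. Beside Cd48, the SLAM genes Ly9 (13.4 and 13.6 CPM against 25.1 and 23.5 CPM) and Cd84 (20.1 and 16.6 CPM against 24.6 and 24.3 CPM) also lay wholly lower. In the list of the SLAM family, which also held adaptor genes, 0 of the 6 tested genes lay wholly higher. Podxl, related to Cd34, had 3.34 and 2.65 CPM against 1.18 and 1.17 CPM. F2r, of the protein C pathway like Procr, had 39.3 and 34.7 CPM against 17 and 18.2 CPM. Of 35 tested genes for other progenitor markers 10 lay wholly higher and 19 wholly lower, beside the same 26.7% and 29.9% of all genes, with Vldlr at 67.8 and 63.8 CPM against 23.8 and 21.9 CPM, and Ly6a, which encodes the stem cell antigen Sca-1, at 4.14 and 2.80 CPM against 14.7 and 14.7 CPM.

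For the 5 members with at least 1 CPM in all 8 libraries, the genes with the most similar course were found by Euclidean distance between log2(CPM + 1) values centered within each table, among 11247 other genes. Nearest to Cd34 were Ctsl (distance 0.16), 2010002N04Rik (0.23) and Armcx4 (0.25), where Cd34 itself lay 1.04 from a flat course. Ctsl had 23.5 and 23.3 CPM in the control IdHPCs and 55.2 and 38.9 CPM in Pcgf1-KO IdHPCs. Nearest to Kit were Prkca (0.26), Fam190a (0.30) and Man1c1 (0.30). Flt3 was followed most closely by AI987944 (0.12), B4galt1 (0.14) and Fbxo18 (0.16). For Cd48 these were Sult2b1 (0.19), Socs1 (0.22) and Mri1 (0.23), and for Cd93 they were A730008H23Rik (0.32), Itpr1 (0.33) and Adrbk2 (0.34), each at a larger distance than the nearest gene of the other members. The 8 libraries share their 2 tables' totals, and these distances are a description.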

How the data were processed

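RNA-seq of poly(A) RNA was analysed from 8 libraries, 2 per group. The authors deposited 2 tables of CPM values, made from reads aligned to mm9 (the methods name HISAT2, the submitters' processing notes TopHat2 2.0.13), counted with Rsubread and scaled by the library total with edgeR. The labels give groups and replicate numbers. Both tables list 284716 exon rows without positions. Of the 220394 rows with reads in any library, 58624 (26.6%) repeated the row before them and were dropped. Rows were then summed per symbol. All values (100%) were whole multiples of the CPM of 1 read within 0.01 reads, and these reads were recovered for the count tests. A read that overlaps several rows stands on each, and the floors of 3 reads cover counting error only, while the confidence intervals are limma's and rest on the spread between libraries. Exon numbers were assigned by listed order to a transcript of the same number of exons in the NCBIM37 annotation, and the sequences come from the NCBIM37 genome.

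Each table was tested alone with limma 3.58.1 (R 4.3.3) on values transformed to log2(CPM + 1), with a trend of variance on mean, for genes with at least 1 CPM in at least 1 of 4 libraries, 12273 in IdHPCs and 12153 in LMPPs, and the Benjamini-Hochberg adjusted p over these genes was held to 0.05. This scale understates fold changes of genes near 1 CPM. DESeq2 1.42.0 and, from edgeR 4.0.16, exactTest and the quasi-likelihood test were run on the recovered reads as alternatives, beside other pseudocounts, filters, scalings and sums of rows, the replicate number as a term, and each library left out. The tests were first run on simulated data. No row without a symbol entered the tests. The members and the gene lists were chosen with earlier results of these data known. Beside the members, up to 4 genes of a list were named, first those past the adjusted threshold and then by the size of their difference among genes with a mean of at least 5 CPM in that table (in LMPPs between the libraries without and with reads on exons 2 to 7 of Pcgf1), and the ligands, relatives and markers named beyond these were chosen after their values were seen. For each member with at least 1 CPM in all 8 libraries the 3 nearest genes were named.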

Additional observations from a re-analysis of the deposited data

How the results depend on the processing

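Of 192 values of single members under alternative settings, 163 kept the direction and the side of the threshold of the values reported. In IdHPCs, the genes called higher were 33 and those called lower 32. These counts were 0 and 0 without the filter, 59 higher with median ratio scaling, 484 and 185 with the replicate number as a block, 77 higher with edgeR's quasi-likelihood test, 466 and 163 with exactTest, 344 and 153 with DESeq2, 19 higher with all listed rows, and 0 and 3 without the exon at the 3′ end. With 1 library left out they ran from 0 to 234 higher and from 14 to 591 lower, with 0 and 14 without control 2, 234 and 591 without Pcgf1-KO 1, and 169 and 61 without Pcgf1-KO 2.

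Cd34 in IdHPCs was called with the replicate block (log2 fold change 0.97, adjusted p = 0.0235 by limma), with exactTest (1.0), with DESeq2 (0.97) and without Pcgf1-KO 2, and it ranged from 0.73 to 1.21 with 1 library left out. Over all 16 alternatives its adjusted p lay between 0.00362 and 0.661. Kit turned to -0.061 without the 3′ exon and ranged from -0.16 to 0.62 with 1 library left out, Flt3 from -0.50 to 0.065, and Cd48 from -0.10 to 0.14. Procr lay between 0.11 (without control 2) and 0.33 (the quasi-likelihood test) over all its alternatives and was called in none. Cd48 was -0.0028 with DESeq2 and -0.15 without the 3′ exon. In LMPPs by label the replicate block gave 3 genes called higher. There Cd34 was -0.036 without the 3′ exon, Kit was -0.0014, -0.00091 and -0.0026, and Cd93 was 0.0049, 0.0047 and 0.0042 with the quasi-likelihood test, exactTest and DESeq2. With 1 library left out Cd34 ranged from -0.050 to 0.10, Kit from -0.35 to 0.40, Flt3 from -0.11 to 0.16, Cd48 from -0.44 to 0.35, Cd93 from -0.35 to 0.29 and Procr from -0.24 to 0.54. The block changed no other call of a member. Replicate numbers are shared by the groups, but neither the labels nor 2 pairs show that they pair the libraries (correlation of deviations 0.15 in IdHPCs and 0.71 in LMPPs). Summing overlapping rows of an exon once was chosen after seeing the data and gave Cd34 0.89 (adjusted p = 0.125 by limma). Without division by exon length Kit (28.4 and 50.3 CPM) stood above Cd48 (18.8 and 15.8 CPM) in control IdHPCs, and Flt3 overlapped Cd93. The cause of these differences was not tested. Depth limits Slamf1 and Procr, which rest on at most 13 and 49 reads per library.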
